A study of Mus musculus with 16 samples.

Results

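Complex I of the respiratory chain was followed through its nuclear genes in mouse muscle cells with and without the miR-206 family of microRNAs. The genes described are the protein-coding genes of the deposited expression table whose symbol begins with Nduf, which gave 45 of the table's 35275 genes. Of these, 44 had a mean of at least 0.5 FPKM (fragment counts scaled to gene length and to the depth of the library) over the libraries and were tested among 11832 genes. Ndufa4l2 lay below that level. By their known roles the 45 comprise 7 core subunits, 9 accessory subunits of the peripheral arm, 9 of the proximal and 10 of the distal membrane arm, the acyl carrier protein, 7 assembly factors and 2 genes that carry the Nduf name without being complex I subunits. Ndufb1 and Ndufaf8 were not analysed here.

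The cells were C2C12, an established line of mouse myoblasts that fuse into myotubes when serum is lowered, and per the labels the stock was PAX7 negative. Wild-type cells, kept as 2 control populations, were set beside 2 clones in which the genes of miR-206 and of both miR-1a copies (miR-1a-1, miR-1a-2) are deleted (triple knockout, tKO). Each line was harvested in growth medium with 20% fetal bovine serum near confluence (GM) and after 3 days in 2% horse serum (DM3), in 2 cultures per stage, which gave 4 groups of 4 libraries. Nothing but the titles says that the cultures were separate, so p-values measure the spread between these libraries, which may be technical. Since each knockout line is 1 clone, an effect of the deletion and a property of the clone cannot be told apart in 1 line alone. The microRNAs themselves are not read by sequencing of polyadenylated RNA, and the genotype labels were not checked here. In every list of 4 values below, the order is line 1 culture 1, line 1 culture 2, line 2 culture 1 and line 2 culture 2.

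Complex I oxidises NADH in the mitochondrial matrix, passes the electrons along a chain of iron-sulfur clusters to ubiquinone and pumps protons across the inner membrane. Its core is encoded partly by nuclear genes (the hydrophilic arm) and partly by mitochondrial DNA (the mt-Nd genes of the membrane arm), around which accessory subunits are built in with the help of assembly factors that leave the finished enzyme. Differentiating muscle is known to raise its mitochondrial content. MicroRNAs of the miR-1 and miR-206 family are muscle microRNAs that share a seed, the stretch that pairs with target messages.

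The mature miR-206 of RefSeq (GRCm38.p6) is shown with its seed, bases 2 to 8, in capitals.
mmu-miR-206-3p: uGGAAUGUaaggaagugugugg
Matches to this seed were searched in the longest annotated 3′ UTR of each gene (GENCODE M21), as the letters ACATTCCA (8 bases), or ACATTCC and CATTCCA (7 bases). Among the 45 genes, 3 held a match, and Ndufaf4 was the 1 with the 8-base form. The 3 stretches are printed 5′ to 3′ on the transcript strand with the match in capitals, because Ndufaf4 is also the gene whose level differed between genotypes below.
Ndufaf4: ctggaatgttACATTCCAgtaatagaat
Ndufa12: gggcaggctgCATTCCAacctgagcca
Ndufb10: cagaactcttCATTCCActgctaaaaa
The match starts at base 779 of 3026 in Ndufaf4, at base 301 of 582 in Ndufa12 and at base 16 of 57 in Ndufb10. The shortest coding transcript of Ndufaf4 has 673 bases in all, and whether the message in these cells holds the matched stretch was not tested. The 3 of 45 are 6.67%, against 19% of the 10806 tested genes with a 3′ UTR, whose median length was 1191.5 bases against 235 bases for the Nduf genes. The 8-base form was in 1 of the 45 Nduf genes and in 482 of the 10806 tested genes. A match is a description of the letters and not of a working site. Whether it bears on the level of Ndufaf4 was not tested.

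Fragment numbers worked out from the FPKM steps gave a depth of 22642563 to 56585952 per library. The labelled state was checked against marker genes. Of 9 myotube markers, 8 were tested, and 8 of these 8 rose in DM3 in both genotypes; their summed level was 9.18 to 73.2 FPKM in GM and 349 to 1452 FPKM in DM3. The ninth, Tnnc2, stood at 0 in 13 libraries. Within DM3 the sum was 892 to 1425 FPKM in controls, 1423 and 1452 FPKM in the tKO libraries of culture 1 and 349 and 487 FPKM in those of culture 2. Acta1 and Mylpf made up most of this sum in DM3. Other markers were also lower in culture 2 than in culture 1 of tKO DM3 (clone 1 and clone 2 in order). Ckm had 23.0 and 21.8 FPKM in culture 1 against 5.50 and 5.47 FPKM in culture 2. Tmem8c had 33.6 and 39.4 FPKM against 11.7 and 19.1 FPKM. Set against controls, however, not every marker was low in culture 2. In culture 2 of tKO DM3, Myh3 stood at 15.8 and 18.6 FPKM and Myog at 19.3 and 3.89 FPKM. In culture 1, Myh3 stood at 66.3 and 79.5 FPKM and Myog at 20.4 and 8.23 FPKM. Control DM3 libraries ran from 7.14 to 16.1 FPKM for Myh3 and from 2.35 to 8.65 FPKM for Myog. Markers of 5 other cell types (leukocyte, endothelium, adipocyte, epithelium and hepatocyte) summed to 0.00552 to 4.38 FPKM, and Pax7 reached at most 6 fragments. In bulk samples fewer differentiated cells and less RNA per cell cannot be told apart.

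Levels per length spanned a wide range and differed between roles. Core subunits had a median of 78.6 FPKM over the 16 libraries, and the lowest was Ndufs1 at 44.6 FPKM. Peripheral-arm accessory subunits ran from 26.5 FPKM (Ndufs4) to 136 FPKM (Ndufa6), proximal ones from 18.0 FPKM (Ndufa11) to 141 FPKM (Ndufa8) and distal ones from 0.560 FPKM (Ndufb2) to 238 FPKM (Ndufb9). The assembly factors were lower, from 4.87 FPKM (Ndufaf4) to 18.5 FPKM (Ndufaf2), with a median of 9.69 FPKM. Ndufa4, now known as a subunit of cytochrome c oxidase, was the highest of all at 267 FPKM, and its paralogue Ndufa4l2 the lowest at 0.298 FPKM. Ndufa4l2 had 0 to 27 fragments and was at or under the floor of 3 fragments in 4 libraries.

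Some levels depend on the length the table assigns. Ndufb2 is listed with 4371 bases although its shortest coding transcript has 455, and its exons overlap those of Braf, Gm16272 and Gm42420, so its low FPKM is uncertain. Ndufb7, Ndufab1 and Ndufaf4 are likewise listed with 4435, 3479 and 3632 bases, which lowers their FPKM and, through the pseudocount, also the size of their differences between groups on the log2(FPKM + 1) scale. Ndufa11 is listed with 2661 bases although its longest GENCODE M21 transcript has 918. Its place as the lowest proximal subunit is therefore uncertain. Exons of 15 of the 45 genes overlap another gene. Whether counting used the strand is not given in the sources used here, so reads of such pairs cannot be told apart. Gm42420 (with Ndufb2), Gm20538 (with Ndufb8) and Gm49356 (with Ndufb9) lie on the same strand as their partner, where strand would not separate reads. The deposited values hold Gm20538 at 0 FPKM throughout and do not list Gm42420 or Gm49356.

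**Figure D1:**
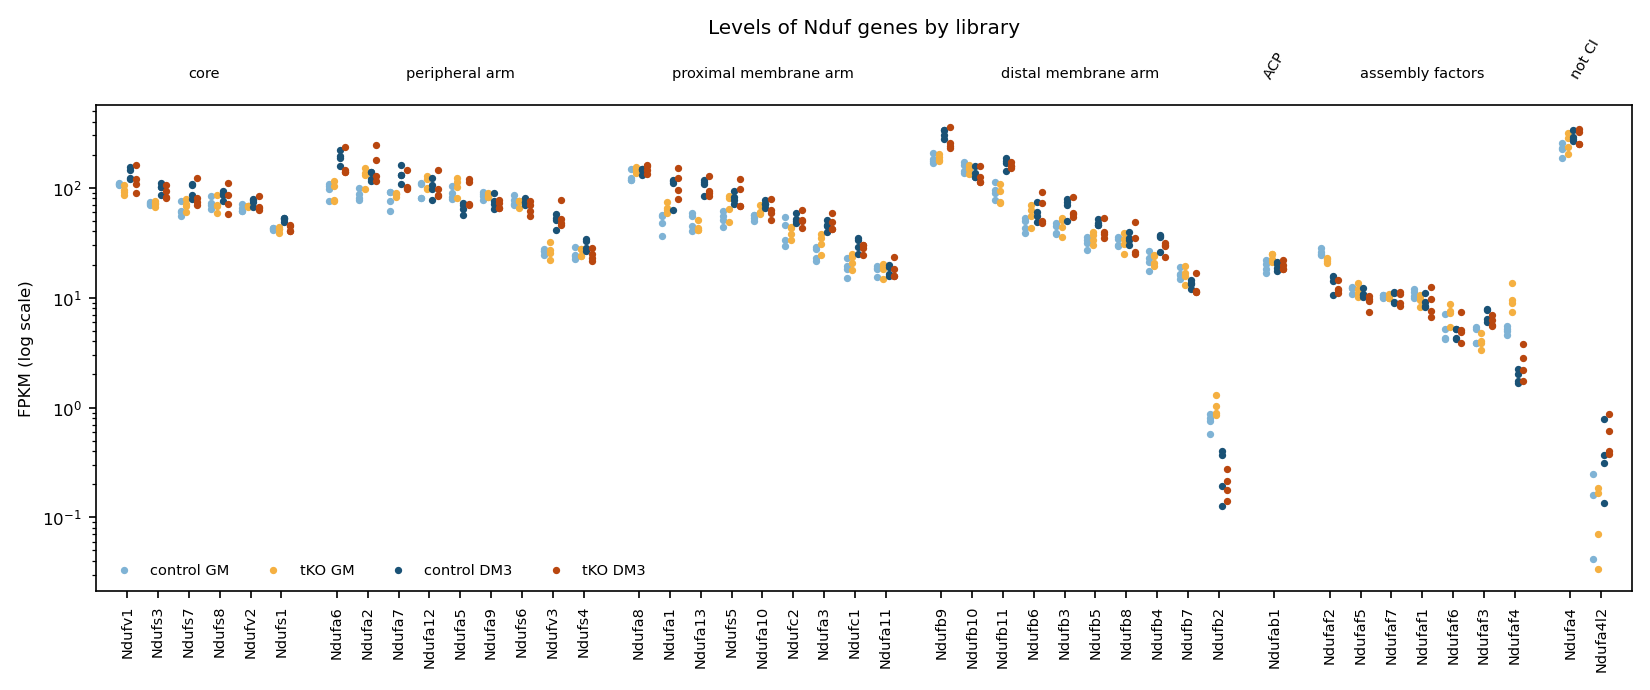
FPKM (log scale) of Nduf genes, arranged by role, with 1 point for each library and 1 colour for each group; ACP is the acyl carrier protein, not CI marks Ndufa4 and Ndufa4l2, and the 1 library in which Ndufa4l2 is listed at 0 is not drawn. Assembly factors lie below most subunits, at means of 4.87 to 18.5 FPKM, and Ndufb2 and Ndufa4l2 lie below 1.3 FPKM in every library.

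Differentiation of control cells raised most structural genes and lowered the assembly factors Ndufaf4 and Ndufaf2. Of the 44 genes tested, 27 differed between DM3 and GM (limma, Benjamini-Hochberg adjusted p under 0.05), against 61.5% of all genes. The direction was the reverse of that of all genes: 23 rose and 4 fell, while 23.2% of all genes rose and 38.3% fell. In 21 genes every DM3 library lay above every GM library (24.5% of all genes), and in 5 every one lay below (39.8% of all genes). The median change was 0.34 on the log2(FPKM + 1) scale, against -0.15 over all genes. By role, 4 of 7 core subunits rose, 5 of 9 peripheral-arm subunits rose and 1 fell, 7 of 9 proximal subunits rose, and 5 of 10 distal subunits rose and 1 fell. Of the 7 assembly factors 1 rose and 2 fell. Ndufa4 rose as well, and Ndufab1, the acyl carrier protein that binds to both arms, stood at 19.3 ± 2.28 FPKM in control GM and 19.4 ± 1.60 FPKM in control DM3 (SD, n = 4). With 1 control line left out, 14 (without line 1) or 15 genes (without line 2) passed the threshold. The shares of all genes in those fits are not given here.

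Among core subunits Ndufs3, which lies in the arm that leads to the ubiquinone site, stood at 72.8, 70.7, 74.0 and 69.9 FPKM in control GM. It stood at 109.9, 101, 102 and 85.5 FPKM in control DM3. Every DM3 library lay above every GM library, and the change was 0.46 ± 0.10 (log2, SE; limma adjusted p = 0.00099). Ndufs7, which holds the last cluster before ubiquinone, rose by 0.58. Ndufs1, the largest core subunit, rose by 0.27. Ndufv1, which binds NADH and the flavin, changed by 0.32 without passing the threshold (limma adjusted p = 0.065), as did its partner Ndufv2 at 0.20 and the ferredoxin-like Ndufs8 at 0.25. All 7 core estimates were positive.

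In the peripheral arm Ndufa6, an accessory subunit that docks the acyl carrier protein, had 97.9, 109, 105 and 76.3 FPKM in control GM. In control DM3 it had 158, 222, 196 and 187 FPKM. The groups did not overlap, and the change was 0.97 ± 0.18 (log2, SE; limma adjusted p = 0.00023). Ndufv3, the small flavoprotein subunit, rose by 0.92 and Ndufa7 by 0.72. Ndufa5 was the 1 peripheral subunit that fell, by 0.43 (limma adjusted p = 0.045), from 89.0 ± 10.8 to 65.7 ± 7.15 FPKM (SD, n = 4); that call was lost under 11 of 22 alternative settings.

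Proximal membrane-arm subunits held the 2 largest estimated rises on this scale. Ndufa13, a membrane-spanning accessory subunit on chromosome 8 (69894188 to 69902558), stood at 45.0, 58.9, 55.0 and 40.1 FPKM in control GM. In control DM3 it stood at 83.7, 117, 107 and 113 FPKM. The lowest differentiated library, line 1 culture 1, still lay above the highest growing one, and the change was 1.07 ± 0.15 (log2, SE; limma adjusted p = 1.5e-05). An exon of Ndufa13 overlaps Tssk6 on the other strand. Ndufa1, a small X-linked membrane subunit, rose by 1.01, with 62.1, 118, 111 and 114 FPKM in control DM3 against 36.5, 55.2, 56.3 and 47.5 FPKM in control GM. Ndufa3 rose by 0.82 and Ndufc1 by 0.66. In the distal arm Ndufb11, also X-linked, rose by 0.84, and Ndufb9, which docks the acyl carrier protein in that arm, by 0.77. Ndufb2 fell by 0.46, at 0.126 to 0.868 FPKM in control cells and with the uncertainty of its length and overlaps given above. Its estimate ran from -0.39 to -1.54 over the alternative settings, lowest with voom on fragment numbers, and the call was lost without control line 1 (limma adjusted p = 0.10).

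Of the assembly factors, Ndufaf4 and Ndufaf2 fell, Ndufaf3 rose and 4 did not pass. Ndufaf4 and Ndufaf3 act together early in building the arm that carries the ubiquinone site. Ndufaf4 (chromosome 4, 24898083 to 24905001) had 4.61, 5.21, 4.94 and 5.48 FPKM in control GM. It had 1.74, 1.69, 2.22 and 2.02 FPKM in control DM3. All differentiated libraries lay below all growing ones, and the fall was -1.06 ± 0.17 (log2, SE; limma adjusted p = 6.5e-05). Its partner Ndufaf3 went the other way and rose by 0.53, from 4.57 ± 0.832 to 6.99 ± 0.918 FPKM (SD, n = 4).

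Ndufaf2, a paralogue of the subunit Ndufa12 that attends late assembly, fell by 0.85. It had 24.5, 24.7, 28.0 and 26.1 FPKM in control GM against 10.6, 15.9, 14.1 and 15.4 FPKM in control DM3, again with no overlap (limma adjusted p = 1.3e-05). Ndufa12 itself changed by 0.08 (limma adjusted p = 0.71). The other 4 assembly factors had estimates of -0.22 (Ndufaf1, which works on the membrane arm), -0.11 (Ndufaf5, which hydroxylates Ndufs7), -0.10 (Ndufaf6) and -0.03 (Ndufaf7, a methyltransferase), none past the threshold.

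**Figure D2:**
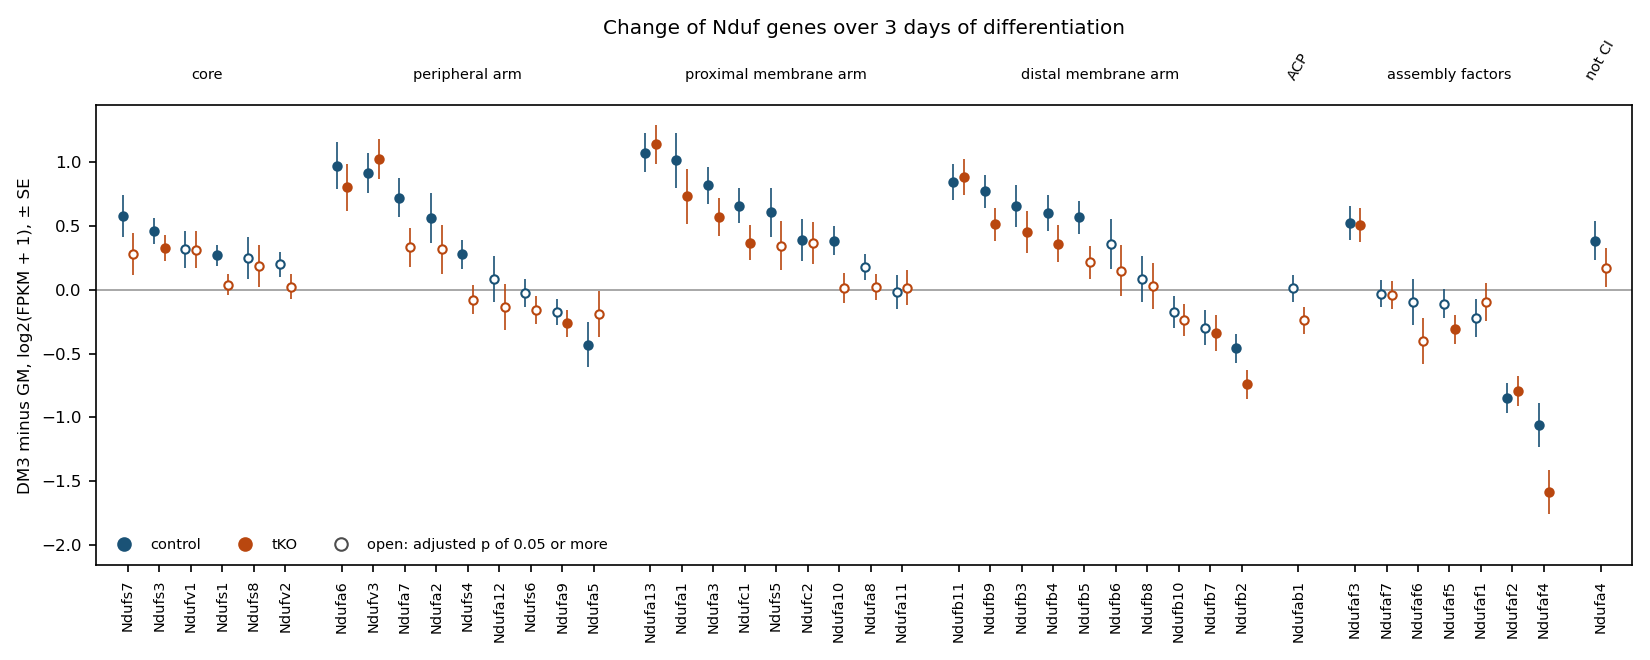
DM3 minus GM on the log2(FPKM + 1) scale for Nduf genes, by role, in control (blue) and tKO cells (orange); points are limma estimates, bars their SE, and open points have an adjusted p of 0.05 or more. Ndufa13 stands at the top (1.07 in control, 1.14 in tKO cells) and Ndufaf4 at the bottom (-1.06 and -1.58), and in most rows the tKO estimate is the lower of the pair.

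The promoters of a faller and a riser are shown because both hold the same recognition core. Nuclear respiratory factor 1 (NRF1) is known to bind palindromes built on GCATGCGC, and that core was searched on both strands from 250 bases before to 50 after each RefSeq start (GRCm38.p6). It is in capitals in both sequences, which run 5′ to 3′ on the gene's strand.
Ndufaf4 (chr4:24897833-24898132, plus strand): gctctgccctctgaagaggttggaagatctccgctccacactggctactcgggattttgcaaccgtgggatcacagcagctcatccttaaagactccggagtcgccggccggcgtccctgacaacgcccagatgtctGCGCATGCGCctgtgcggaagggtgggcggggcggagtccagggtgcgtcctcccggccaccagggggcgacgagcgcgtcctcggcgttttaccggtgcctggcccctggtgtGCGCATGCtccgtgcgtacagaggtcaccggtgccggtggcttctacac
Ndufa6 (chr15:82354242-82354541, minus strand): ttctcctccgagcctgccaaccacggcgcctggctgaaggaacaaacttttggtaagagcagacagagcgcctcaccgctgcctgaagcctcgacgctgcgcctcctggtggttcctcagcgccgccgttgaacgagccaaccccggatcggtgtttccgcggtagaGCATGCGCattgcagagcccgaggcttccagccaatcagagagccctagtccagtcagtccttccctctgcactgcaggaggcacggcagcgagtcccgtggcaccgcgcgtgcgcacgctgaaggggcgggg
A promoter was matched for 39 of the 45 genes. The NRF1 core was in 5 of these 39 (12.8%: Ndufa6, Ndufa8, Ndufa11, Ndufaf4 and Ndufaf5), against 2.8% of 27025 promoters. In control cells Ndufa6 rose and Ndufaf4 fell, while Ndufa8, Ndufa11 and Ndufaf5 had estimates of 0.18, -0.02 and -0.11. The core of YY1, ATGGCGGC, was in 6 (15.4%: Ndufa7, Ndufa9, Ndufb5, Ndufs4, Ndufs6 and Ndufs7), against 2.38% of all promoters. The GC box GGGCGG was in 20 (51.3%) against 35.9%, and the E-box CAGCTG, read by myogenic factors, in 4 (10.3%) against 16.1%. The ETS core CCGGAAGT was in 1 (Ndufs3, 2.56%) against 4%, and the element TCAAGGTCA of oestrogen-related receptors in 0 of 39 against 0.407%. The GC box can lie within a longer GC-rich run beside the other motifs, and a match says only that the letters are there. The 27025 promoters were not limited to genes tested here. The messages of the factors themselves differed in direction over control differentiation. Nrf1 fell by 0.85, Gabpa (the factor of the ETS core) by 0.52 and Yy1 by 0.24 (limma adjusted p = 0.00015, 0.016 and 0.020). Esrra, an oestrogen-related receptor, rose by 0.89 (limma adjusted p = 8.2e-07).

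In tKO cells the same stages gave 19 genes past the threshold, against 60.9% of all genes. There were 13 that rose, where 24.9% of all genes rose, and 6 that fell, where 36% of all genes fell. The DM3 libraries lay wholly above the GM libraries in 12 genes (19.3% of all genes) and wholly below in 4 (29.8%). The median change was 0.16 (log2), against -0.12 over all genes. By role, 2 of 7 core subunits rose, among them Ndufs3 by 0.32, 2 of 9 peripheral subunits rose and 1 fell, 4 of 9 proximal subunits rose, and 4 of 10 distal subunits rose and 2 fell. Of 7 assembly factors 1 rose and 3 fell. With median-of-ratios scaling, which moved the median of all genes from -0.12 to 0.01, the split was 19 up and 3 down, and with TPM it was 17 up and 5 down; in control cells the same scaling moved that median from -0.15 to 0.01 and gave 28 up and 3 down. Without clone 1 there were 13 genes past the threshold, 5 that rose and 8 that fell. Without clone 2 there were 16, and without the clone 1 culture 1 library of DM3 there were 18. The shares of all genes called without these lines or this library are not given here, so these counts are not read as a result about the Nduf genes alone.

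The leading genes in tKO cells were Ndufa13, Ndufv3 and Ndufb11. Ndufa13 stood at 40.9, 43.0, 50.4 and 41.1 FPKM in tKO GM. It stood at 128, 89.4, 84.3 and 93.3 FPKM in tKO DM3. The groups did not overlap, clone 1 culture 1 was the highest, and the change was 1.14 ± 0.15 (log2, SE; limma adjusted p = 8.2e-06). Ndufv3 rose by 1.02 and Ndufb11 by 0.88. Ndufa6 had 104, 77.8, 114 and 75.3 FPKM in tKO GM against 233, 141, 144 and 140.0 FPKM in tKO DM3, a rise of 0.80 in which clone 1 culture 1 stood far above the other 3 libraries. Ndufa1 rose by 0.73; without clone 1 its change was 0.43 and no longer passed the threshold (limma adjusted p = 0.21).

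Ndufaf4 had the largest fall in tKO cells on the log2(FPKM + 1) scale. It had 9.58, 13.6, 7.33 and 8.96 FPKM in tKO GM and 2.19, 3.77, 1.76 and 2.82 FPKM in tKO DM3, a fall of -1.58 ± 0.17 (log2, SE; limma adjusted p = 1e-06). No library of one stage reached the range of the other. With voom on fragment numbers the fall of Ndufb2 was the larger, at -2.34 against -1.91 for Ndufaf4. Ndufaf2 fell by 0.79, from 21.9 ± 1.08 to 12.3 ± 1.53 FPKM (SD, n = 4). Ndufaf5 fell by 0.31, Ndufa9 by 0.26, Ndufb7 by 0.34 and Ndufb2 by 0.74 (-0.66 to -2.34 over the alternatives); the calls of Ndufaf5, Ndufa9 and Ndufb7 were lost under 8, 12 and 11 of 22 alternative settings.

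Whether differentiation moved these genes differently in the 2 genotypes was tested as an interaction. None of the 44 genes passed (limma, smallest adjusted p = 0.42), where 0.254% of all genes did, and 3 had an unadjusted p under 0.05 (Ndufa10, Ndufs4 and Ndufaf4), where 10.8% of all genes did. The estimates were negative for 36 of 44 genes, with a median of -0.19 against 0.03 over all genes, and this holds for 6 of 7 core, 7 of 9 peripheral, 7 of 9 proximal and 9 of 10 distal subunits. For Ndufa10, a kinase-like accessory subunit, the change was 0.38 in control and 0.01 in tKO cells. For Ndufs4, which completes the NADH-oxidising module, it was 0.28 and -0.08. By line, the median change of the members was 0.30 and 0.33 in the control lines, 0.30 in tKO clone 1 and 0.02 in tKO clone 2. In clone 2, 23 genes had a positive change and 21 a negative one, against 31 and 13 in clone 1, so the median interaction was -0.04 without clone 2 and -0.25 without clone 1.

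**Figure D3:**
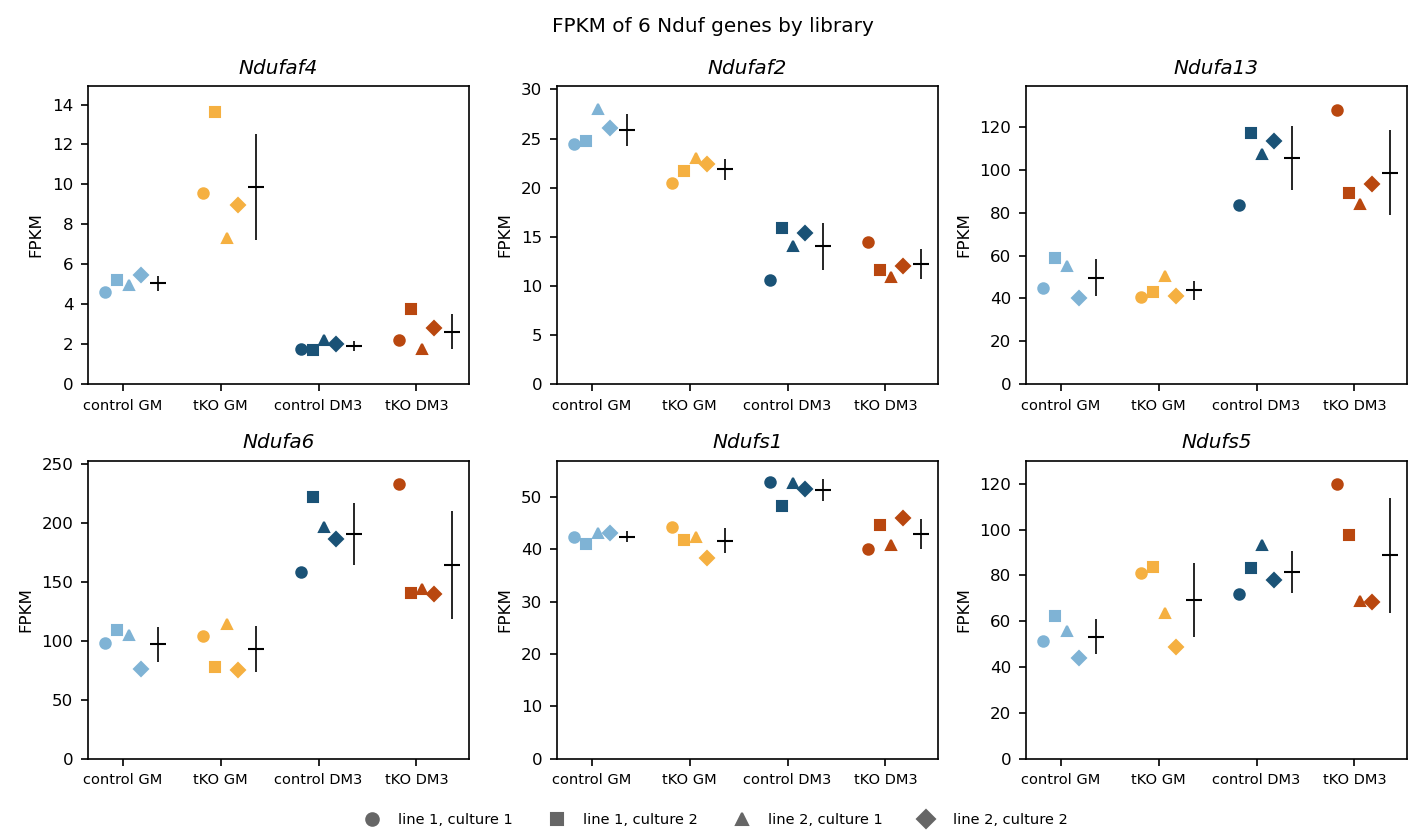
FPKM by library for 6 Nduf genes in the 4 groups; symbols give line and culture, and the black mark with its bar is the mean ± SD (n = 4). Ndufaf4 and Ndufaf2 are lower in DM3, Ndufa13 and Ndufa6 are higher in DM3, Ndufs1 is higher in control DM3 (48.3 to 53.0 FPKM) than in tKO DM3 (40.1 to 46.0 FPKM), and Ndufs5 is higher in clone 1 (line 1) than in clone 2 of the tKO groups.

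In growth medium 1 of the 44 genes differed between genotypes, against 2.06% of all genes (0.549% higher and 1.51% lower in tKO cells); 6 had an unadjusted p under 0.05, where 17.5% of all genes did. The gene was Ndufaf4, with 9.58, 13.6, 7.33 and 8.96 FPKM in tKO cells against 4.61, 5.21, 4.94 and 5.48 FPKM in controls. All tKO libraries lay above all control libraries, and clone 1 culture 2 was the highest. That library also had the lowest depth of the 16 (22642563 fragments) and the highest summed myotube markers in GM (73.2 FPKM). Its summed markers of other cell types were the highest too (4.38 FPKM). The part of these traits in the Ndufaf4 difference was not tested. The means were 9.87 ± 2.67 and 5.06 ± 0.373 FPKM (SD, n = 4), and the difference was 0.81 ± 0.17 (log2, SE; limma adjusted p = 0.023). It was 0.70 within culture 1 and 0.93 within culture 2. It was 1.04 for clone 1 and 0.59 for clone 2 against all controls.

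The direction of the Ndufaf4 difference held under each of 22 alternatives, with values of 0.59 to 1.04, but the call was lost under 10 of them, with adjusted p from 0.0038 to 0.63 over all 22. Those were line averages as units, each of the 4 control GM libraries and either clone 1 GM library left out (adjusted p = 0.050 to 0.086), and control line 1, control line 2 or tKO clone 1 left out. Because the groups did not overlap, leaving out libraries or lines and averaging lines could not have turned the direction. At a mean of 4.87 FPKM Ndufaf4 was not among the genes tested with a filter of 5 FPKM.

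Other members had smaller differences in GM. Ndufa2, a thioredoxin-like peripheral subunit, had 151, 137, 129.7 and 97.4 FPKM in tKO GM and 80.9, 88.6, 99.5 and 77.5 FPKM in control GM. The groups overlapped in 1 tKO library (clone 2 culture 2), and the difference of 0.55 did not pass (limma adjusted p = 0.14). Groups that did not overlap were those of Ndufaf4, Ndufa1 and Ndufa10, higher in tKO cells, where 5.38% of all genes were so, and of Ndufaf2 and Ndufv1, lower, where 8.62% were. Ndufa1 differed by 0.43, Ndufa10 by 0.18, Ndufaf2 by -0.23 and Ndufv1 by -0.21, with limma adjusted p of 0.32 to 0.49. The median over the 44 genes was 0.02, against -0.01 over all genes, and 26 were positive.

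After 3 days of differentiation none of the 44 genes differed between genotypes, against 3.38% of all genes (2.02% higher and 1.36% lower in tKO cells). By limma the smallest adjusted p was 0.10, and 3 had an unadjusted p under 0.05 (Ndufs1, Ndufs4 and Ndufa5), where 16.8% of all genes did. The estimate was negative for 31 of 44 genes, with a median of -0.09 against 0.01 over all genes. All 7 core subunits had negative estimates, from -0.26 to -0.10, as had 9 of 10 distal subunits. Proximal subunits were divided, with 5 positive and 4 negative.

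The smallest p belonged to Ndufs1 (chromosome 1, 63143596 to 63176833), which had 40.1, 44.7, 40.8 and 46.0 FPKM in tKO DM3 and 53.0, 48.3, 52.7 and 51.5 FPKM in control DM3. It was the 1 member whose groups did not overlap, a pattern seen for 4.3% of all genes in that direction and 4.22% in the other. The difference was -0.26 ± 0.08 (log2, SE; limma adjusted p = 0.10). In GM the same gene stood at 41.7 ± 2.40 and 42.4 ± 1.02 FPKM (SD, n = 4). Exons of Ndufs1 overlap Eef1b2 and Ino80dos on the other strand. Ndufs4 differed by -0.30 (limma adjusted p = 0.18). Ndufa5 had 119 and 113 FPKM in clone 1 but 69.4 and 71.0 FPKM in clone 2, against 56.3, 64.2, 72.4 and 69.9 FPKM in control DM3, and its difference was 0.46 (limma adjusted p = 0.20). Ndufaf4 stood at 2.63 ± 0.874 FPKM in tKO DM3 and 1.92 ± 0.251 FPKM in control DM3, with overlap and a difference of 0.29 (limma adjusted p = 0.42).

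The DM3 estimates were also read by clone and by culture. Clone 2 lay below the control mean for 41 of 44 genes, with a median of -0.19, whereas clone 1 lay below it for 21, with a median of 0.01. Within culture 1 the genotype difference was negative for 22 genes, with a median of 0.00, and within culture 2 for 33, with a median of -0.14. Tested gene by gene, the difference between cultures passed for 0 of the 44 genes, as given below. The summed myotube markers also differed by culture within tKO DM3, as given above. Single markers went both ways between genotypes in DM3. Atp2a1 was lower in tKO cells by 1.93 (limma adjusted p = 0.0014). Myh3 and Myog had estimates of 1.47 and 0.90 that did not pass (limma adjusted p = 0.051 and 0.25). Without the clone 1 culture 1 library 1 gene passed (Ndufb9), and without clone 2 there were 3, among them Ndufa2 and Ndufa5.

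**Figure D4:**
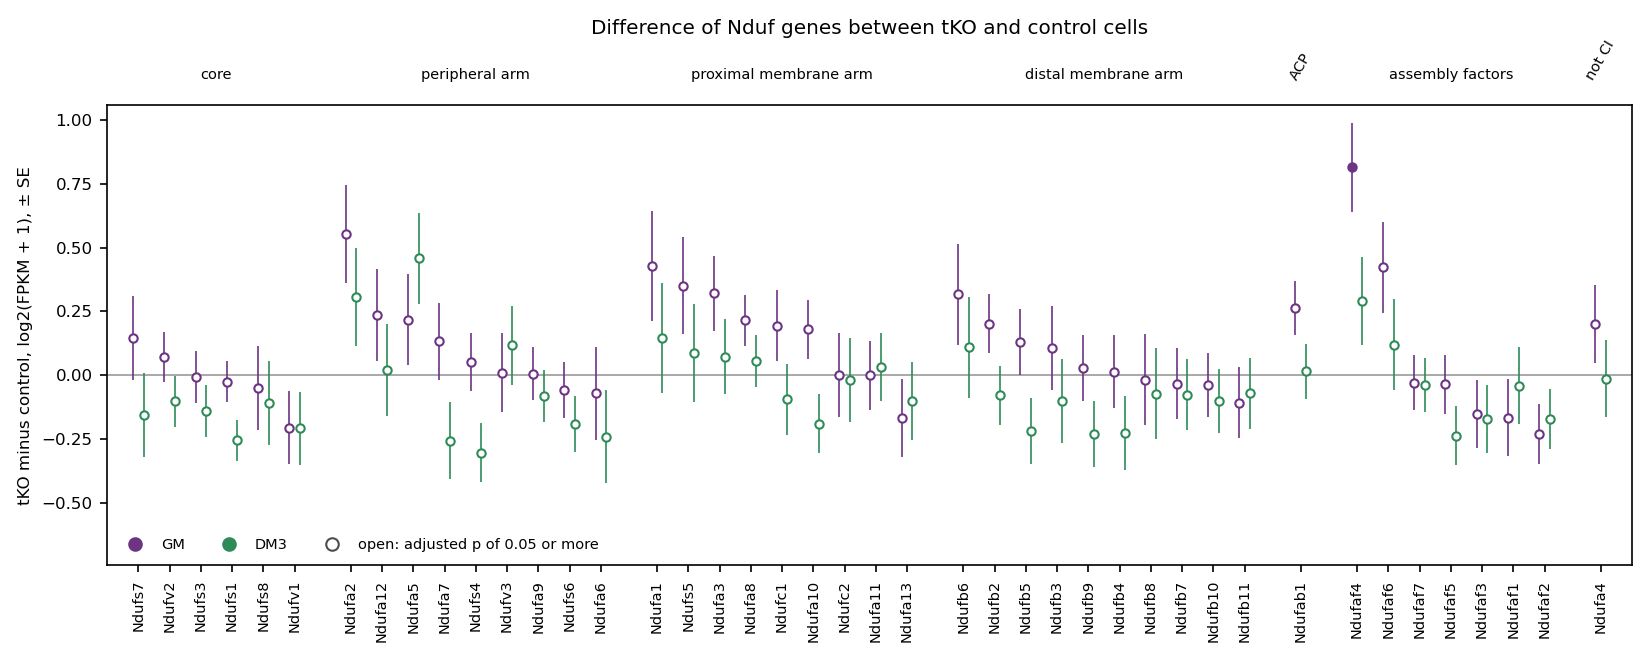
tKO minus control on the log2(FPKM + 1) scale for Nduf genes, by role, in GM (purple) and DM3 (green); points are limma estimates, bars their SE, and open points have an adjusted p of 0.05 or more. Ndufaf4 in GM, at 0.81, is the filled point, and the core subunits drawn have DM3 estimates between -0.26 and -0.10.

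The 2 tKO clones were then compared with each other over both stages, a comparison added after the values had been seen. Of the 44 genes 5 differed, against 5.41% of all genes (3.16% higher and 2.25% lower in clone 2): 1 was higher in clone 2, and Ndufs5, Ndufb6, Ndufa2 and Ndufb8 were lower there by 0.60, 0.57, 0.57 and 0.52 (limma adjusted p = 0.021 to 0.043). Ndufs5, a small subunit on the intermembrane-space side, had 81.0 and 83.7 FPKM in clone 1 and 63.6 and 48.9 FPKM in clone 2 in GM. In DM3 it had 120.0 and 97.8 FPKM in clone 1 and 68.8 and 68.4 FPKM in clone 2. Clone 1 was the higher in each stage, without overlap. The estimate was negative for 37 of 44 genes, with a median of -0.11 against 0.03 over all genes, and 11 had an unadjusted p under 0.05, where 21.7% of all genes did. The count moved between 0 and 9 when single tKO libraries were left out, and it was 1 without a filter, 1 with median-of-ratios scaling and 3 with voom. Ndufs5 was among the genes called in each of these last 3 alternatives. Over all 15 alternatives, however, its call was lost under 5. The calls of Ndufa2, Ndufb6 and Ndufb8 were lost under 8, 10 and 10 of the 15.

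The control populations gave no such call. Of 44 genes 0 differed between them, against 0% of all genes, and 0 of the 44 and 0.355% of all genes had an unadjusted p under 0.05 in limma. The spread in that test is shared with the tKO lines. The median was 0.05, against 0.03 over all genes, and 33 genes had a positive estimate.

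Cultures were compared next, averaged over genotype. In GM 0 of 44 genes differed between culture 2 and culture 1, against 3.41% of all genes; limma's smallest adjusted p was 0.0501 (Ndufb11, -0.39), and 4 had an unadjusted p under 0.05, where 17.2% of all genes did. Ndufb11 had 94.7 and 112 FPKM in the control libraries of culture 1 and 89.4 and 77.8 FPKM in those of culture 2, and in tKO cells 94.3 and 109 FPKM against 72.4 and 73.5 FPKM. Culture 2 was the lower within each line. Of the 44 genes 37 had a negative estimate, with a median of -0.14 against -0.01 over all genes.

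In DM3 0 of 44 genes differed between cultures, against 12% of all genes; limma's smallest adjusted p was 0.079 (Ndufs3, -0.23), and 5 had an unadjusted p under 0.05, where 29.6% of all genes did. Core subunits were negative in 6 of 7 cases, with a median of -0.21, and assembly factors positive in 5 of 7. The count was 4 with median-of-ratios scaling (Ndufs3, Ndufv2, Ndufa10 and Ndufv1, all lower), 2 without control line 1 culture 2, 7 without tKO clone 2 culture 1 and 6 without clone 2. The genotype difference in DM3 did not differ between cultures for any of the 44 genes by limma (smallest adjusted p = 0.42, 0 at an unadjusted p under 0.05), against 0.00845% of all genes (12.1% at an unadjusted p); 34 had a negative estimate. Without tKO clone 2 culture 1 there were 2 (Ndufa6 and Ndufv3).

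Single libraries were set against the mean of their group. In DM3 the library of tKO clone 1 culture 1 had 36 of 44 genes above its group mean, with a median deviation of 0.32 (log2), while its median over all genes was -0.11. Both clone 2 libraries of that group had most genes below the mean (40 and 34 of 44), with medians of -0.13 and -0.15. Among controls the widest were the GM libraries of line 2, at 0.18 in culture 1 and -0.14 in culture 2. The summed level of the 45 genes was 4157 FPKM in clone 1 culture 1 of tKO DM3, against 3282, 3008 and 2923 FPKM in the other 3, and 3159 to 3739 FPKM in control DM3. In GM it was 2310.1 to 2861 FPKM in controls and 2489.9 to 2934 FPKM in tKO cells, so both DM3 groups lay above both GM groups except that the lowest tKO DM3 library was below the highest tKO GM library.

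**Figure D5:**
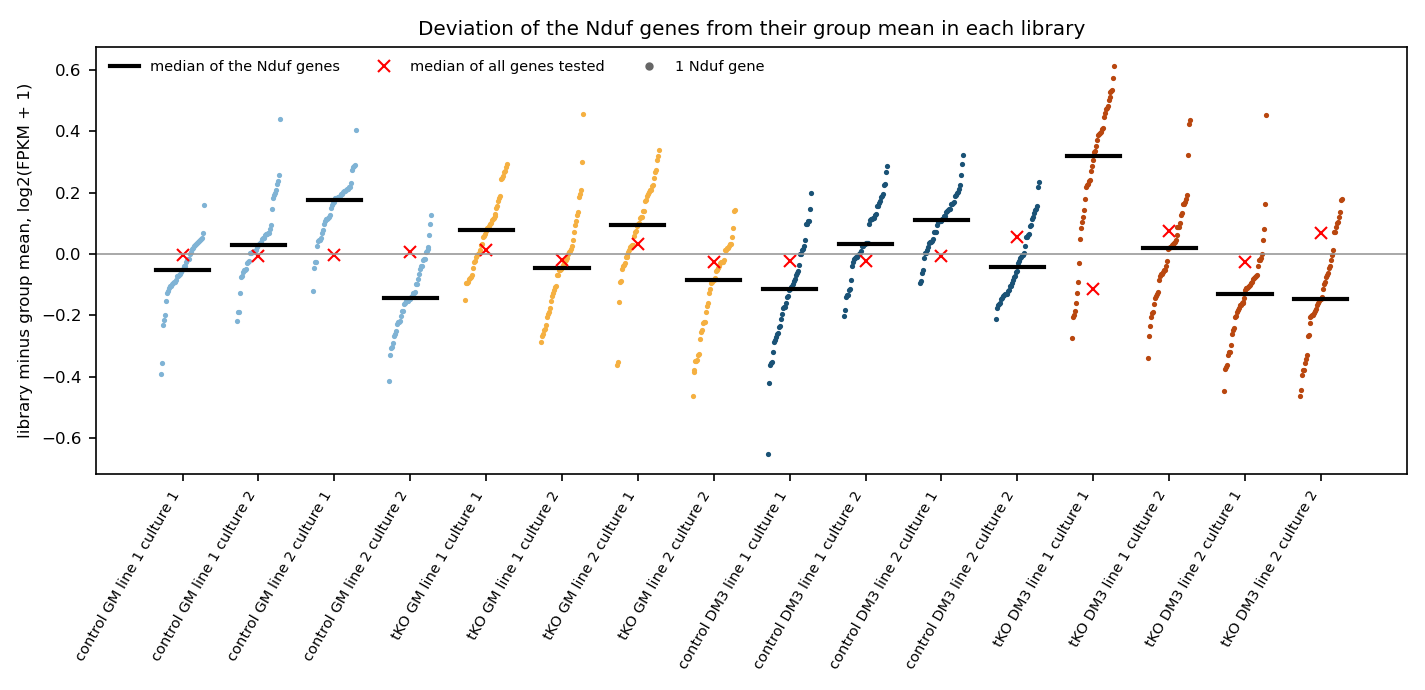
Each tested Nduf gene's value in a library minus its group mean (log2(FPKM + 1)), sorted within each of the 16 libraries; black bars are medians of the 44 genes and red crosses medians of all genes tested. The library tKO DM3 line 1 culture 1 has the highest median, 0.32, with all genes at -0.11, and the line 2 libraries of that group have medians of -0.13 and -0.15.

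The core genes that mitochondrial DNA encodes were lower in DM3 in control cells, while in tKO cells they were low in the libraries of culture 1 and not in those of culture 2. All 7 mt-Nd genes fell in control DM3, with a median change of -1.65 (log2). mt-Nd1 had 3969, 4186, 4309.5 and 5247 FPKM in control GM and 792, 772, 902 and 2359 FPKM in control DM3. The groups did not overlap, and the change was -2.04 (limma adjusted p = 0.0012). In tKO cells 2 of 7 fell (mt-Nd3 and mt-Nd4l), with a median change of -0.86. Those 2 genes had the fewest fragments of the 7, at 14 to 156 for mt-Nd3 and 8 to 182 for mt-Nd4l. The next lowest, mt-Nd6, had 8923 to 22648. The difference between genotypes in DM3 was positive for all 7, with a median of 0.87, and 0 of 7 passed (limma, smallest adjusted p = 0.22, 4 at an unadjusted p under 0.05). mt-Nd1 had 3769, 4243, 4659.9 and 4864 FPKM in tKO GM. It had 785 and 1504 FPKM in the culture 1 libraries of tKO DM3 and 5253 and 3848 FPKM in those of culture 2, so culture 1 lay below the GM libraries and culture 2 at their level. The summed mt-Nd level of clone 1 culture 2 in tKO DM3, 12233 FPKM, lay above that of every GM library (8615 to 11199.9 FPKM). Averaged over genotype, the estimate for culture 2 minus culture 1 in DM3 was positive for 7 of 7 mt-Nd genes, with a median of 1.25. The control lines differed in this. Their summed mt-Nd level in DM3 was 2475 and 2509 FPKM in cultures 1 and 2 of line 1. In line 2 it was 2943 and 6546 FPKM. Culture 2 of tKO DM3 was also the culture with the lower summed myotube markers; their part in the result was not tested.

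Other genes of the pathway were read from lists chosen by function, beside the shares of all genes that rose and fell (23.2% and 38.3% in control cells, 24.9% and 36% in tKO cells). Of 26 nuclear subunits of complexes II to IV, 18 rose and 0 fell in control cells, with a median of 0.91, and 20 rose and 1 fell (Sdhd) in tKO cells, with a median of 0.58. Cox6c, a subunit of cytochrome c oxidase, rose by 1.31 in control cells and by 0.90 in tKO cells. Between genotypes 0 of 26 passed in either stage (limma, smallest adjusted p = 0.079 in GM and 0.074 in DM3, with 5 and 6 at an unadjusted p under 0.05, where 17.5% and 16.8% of all genes were). Of 10 tested assembly factors without the Nduf name, 2 rose and 4 fell in control cells, among them Tmem186 by -1.39 and Tmem70 by 0.78, and in tKO cells also 2 rose and 4 fell. Of 9 tested regulators of mitochondrial genes 2 rose (Esrra and Ppard) and 5 fell in control cells, Pprc1 by -1.07 and Tfam, which packages mitochondrial DNA, by -0.80. Ppargc1a, a coactivator of mitochondrial genes, changed by 0.62 in control cells (limma adjusted p = 0.082) and rose by 0.71 in tKO cells (limma adjusted p = 0.049). It was 1.04 higher in clone 2 than in clone 1 over both stages (limma adjusted p = 0.0046), with 0.434 and 1.28 FPKM in clone 1 and 3.43 and 2.72 FPKM in clone 2 in DM3.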

How the data were processed

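RNA from 16 C2C12 libraries was sequenced on an Illumina HiSeq instrument after poly(A) enrichment, per the labels' protocols. The authors deposited 1 table of FPKM values with a column for each library, without pooling. The submitters' processing notes name STAR, DESeq and build mm10, with no versions or roles. FPKM times gene length gave whole multiples of 1 step per library for 100% of values (within 0.05 fragments), from which fragment numbers were recovered for an alternative test with voom.

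Values were tested as log2(FPKM + 1) with limma 3.58.1 in R 4.3.3 (empirical Bayes, trend and robust) over 11832 genes with a mean of at least 0.5 FPKM, with Benjamini-Hochberg adjustment over all of them and a threshold of 0.05. Group means of the 4 groups gave 12 residual degrees of freedom, and means of group and culture 8. Groups and replicates were taken from the titles, and no sample column was unmapped. The pseudocount of 1 understates changes of low genes. A floor of 3 fragments was used, which covers counting error only. Tested on simulated data for tKO against control in GM (11832 genes, 200 changed), limma recovered 95% of 2-fold and 100% of 4-fold changes. Of its calls 7.14% were false (15 genes). The simulated libraries were independent, with the same dispersion for every gene and no clone or culture effect. Their culture comparison in DM3 gave 0 calls, where 12% of all genes passed in the data. These shares therefore do not describe the power or the error rate in the real libraries.

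The genes, lists and motifs were chosen with earlier results of these data known. Named genes were the called members, up to 10 in each direction, for differentiation, the 5 greatest differences in each direction for the other comparisons, and all core subunits, assembly factors, Ndufab1, Ndufa4 and Ndufa4l2; 1 gene that the rule names is not reported here. Ndufa12 and genes named for a motif or seed match fall outside that rule and were chosen after their values were seen. Figures were drawn with matplotlib 3.10.9 in Python 3.11.15.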

Additional observations from a re-analysis of the deposited data

Results flagged for a closer look

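Among 38 named Nduf genes, each of the 4 groups was examined for a library whose gap to its nearest neighbour exceeded Dixon's critical value as a share of the group's range. Of 152 such sets 6 held one, and chance alone gives about 5%. Of the 6, 3 belonged to tKO DM3 clone 1 culture 1, as the highest library: Ndufa6 at 233 FPKM (others 140.0 to 144), Ndufa7 at 146 FPKM (others 97.5 to 101) and Ndufb7 at 16.8 FPKM (others 11.2 to 11.4). Ndufa1 was lowest in control DM3 line 1 culture 1, at 62.1 FPKM (others 111 to 118). Ndufaf5 was lowest in control GM line 2 culture 2, at 10.7 FPKM (others 12.3 to 12.4). Ndufaf7 was highest in tKO GM clone 1 culture 1, at 10.7 FPKM (others 9.82 to 9.84).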

How the results depend on the processing

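Each comparison was repeated under the settings that applied to it, changing 1 choice at a time: another pseudocount, no filter or one of 5 FPKM, TPM, median-of-ratios scaling, voom, blocks, line averages, and each library or line left out. The comparison of lines was added after the values had been seen. Counts under these settings are given without the share of all genes called under the same setting. A change in a count is therefore not read as a result about the Nduf genes alone. Causes of changes were not tested, also where a setting holds fewer samples or genes. Among the Nduf genes depth limits mainly Ndufa4l2 and Ndufb2, at 0 to 27 and 17 to 177 fragments.

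For tKO against control in GM, 1 gene called became 0 with a filter of 5 FPKM (Ndufaf4 not tested), with line averages and without control line 1, control line 2 or tKO clone 1, and 3 without clone 2 (Ndufa2, Ndufaf4, Ndufs5). It was 0 to 1 with single libraries left out, 0 without each control GM library and without each clone 1 GM library. For DM3, 0 became 3 without clone 2, and 0 to 1 with libraries left out (1 without clone 1 culture 1). The 27 genes of control differentiation became 14 without control line 1 and 15 without line 2. The interaction kept a count of 0 under every setting run.

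Between cultures in GM the count of 0 became 1 (Ndufb11) with a pseudocount of 0.1, a filter of 5 FPKM, TPM or line as a block, and 2 without clone 1 (Ndufa4, Ndufb11). In DM3 it became 4 with median-of-ratios scaling, 1 with voom (Ndufb2), 1 with line as a block and 1 without clone 1 (both Ndufv1), and 6 without clone 2; it ran from 0 to 7 with libraries left out. Genotype by culture in DM3 went from 0 to 1 without clone 2 (Ndufv3) and ran from 0 to 2 with libraries left out. Clone 2 against clone 1 went from 5 to 1 without a filter, 1 with median-of-ratios scaling and 3 with voom, and ran from 0 to 9; each of the 8 tKO libraries moved it by over 1.5 times.

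Signs turned only in estimates that had not passed. Without control line 1, the culture estimate in GM became -0.044 for Ndufa1 and -0.10 for Ndufa7, the DM3 genotype estimate of Ndufa1 became -0.049 and the interaction of Ndufa13 became -0.077. Without clone 1, the DM3 genotype estimate became -0.084 for Ndufa2, -0.18 for Ndufa1 and -0.068 for Ndufaf6. The interaction then became -0.0047 for Ndufa5, -0.061 for Ndufaf1, -0.22 for Ndufv3, -0.13 for Ndufa13 and -0.075 for Ndufaf2. Without clone 2, the GM culture estimate of Ndufaf1 became -0.034. With single libraries left out, the DM3 genotype estimate ran from -0.074 to 0.29 for Ndufa1 and -0.029 to 0.24 for Ndufaf6. The interaction ran from -0.020 to 0.25 for Ndufaf1, -0.060 to 0.20 for Ndufv3, -0.065 to 0.16 for Ndufa13 and -0.060 to 0.12 for Ndufaf2. Culture estimates ran from -0.038 to 0.24 for Ndufa7 and -0.017 to 0.15 for Ndufaf1 in GM, and from -0.0087 to 0.46 for Ndufa1 in DM3.

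Where culture entered the fit as a replicate block, the counts were 1 for genotype in GM, 0 in DM3, 28 and 20 for differentiation in control and tKO cells, 0 for the interaction and 7 between clones; with line and culture together they were 33 and 14 for differentiation. Same-numbered control and tKO libraries correlated at a mean of 0.25 in GM and 0.19 in DM3 in their deviations from the group means, and differently numbered ones at -0.25 and -0.19. Deviations sum to 0 within a group, so the negative means mirror the positive ones by construction and add no evidence. The correlation was over 0.1 in 7 of 8 same-numbered pairs in GM and 5 of 8 in DM3 (1 of 8 differently numbered pairs in DM3). This hints at an effect shared by a number; since not every pair passed 0.1 and no label states one, the pairing was not built into the design.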
